A study of Mus musculus with 2 samples.

Results

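IgA plasma cells were described here from single-cell RNA sequencing of the proximal small intestine of 2 mice. A cell was taken as one when the summed unique molecular identifiers (UMIs, single counted transcript molecules) of Mzb1, Derl3 and Xbp1 reached 10, those of Cd3d, Cd3e and Cd3g stayed under 2, and Igha was the most abundant of the heavy-chain constant genes Igha, Ighm, Ighd, Ighg1, Ighg2b, Ighg2c and Ighg3. By this rule 2653 of the 14898 cells that passed the quality filters were members, 2037 of the 7941 kept cells in mouse 1 and 616 of the 6957 kept in mouse 2. The share was 25.7% in mouse 1 (95% exact binomial interval 24.7 to 26.6) and 8.85% in mouse 2 (8.20 to 9.55), and the intervals did not overlap. All intervals here cover counting error only. The share depends on the cells released by digestion and is not a density in tissue.

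Both animals were VilCreER Apc fl/fl mice (APC), carrying floxed Apc alleles and a tamoxifen-dependent Cre under the Villin promoter. They received 2 injections of 2 mg tamoxifen separated by 24 h, and tissue was taken on day 4. Age and sex of these mice were not given in the sources used here. Most of the study's animal work used the C57BL/6J background, which is not stated for these animals in particular. The dissociated cells were sorted only to remove dead cells, so epithelial and immune cells were captured together. Villin drives Cre in intestinal epithelium, so the plasma cells are bystanders and not the cells meant to lose Apc. Both libraries belong to the same group, no control genotype was compared, and no value below measures an effect of Apc loss.

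Plasma cells are the antibody-secreting end stage of the B cell lineage. In the lamina propria of the gut most of them make IgA, which the joining chain (Jchain) links into dimers that the polymeric immunoglobulin receptor carries across the epithelium. The transition from B cell to plasma cell runs through Irf4, Prdm1 (Blimp-1) and Xbp1, which shut down the B cell program and enlarge the endoplasmic reticulum (ER), where antibody chains are translated, folded and assembled.

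The label was first checked against markers. Igha was part of the rule, so its level is a description, whereas Jchain was not used. Members of mouse 1 held a median of 3371 Igha UMIs and 1336 Jchain UMIs per cell, and members of mouse 2 held 3525.5 and 1283.5. In cells of a T cell gate (3 or more Cd3 UMIs, under 10 of the plasma cell genes), which should lack both, the medians were 26 and 7 in mouse 1 and 5 and 1 in mouse 2. Immunoglobulin genes together took a median of 61.8% of all UMIs in the members of each mouse. The members held 58.4% of all UMIs of kept cells in mouse 1 and 35.1% in mouse 2, and 85.8% and 87.4% of all immunoglobulin UMIs.

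A small group of members went against the label. In 67 members of mouse 1 (3.29%) and 51 of mouse 2 (8.28%) under 5% of the UMIs were immunoglobulin, with medians of 1.00% and 0.149%. Their median Igha counts were 47 and 8 UMIs and their median Jchain counts 10 and 1, near the levels of the T cell gate. They carried mononuclear phagocyte genes (C1qa, Lyz2, Apoe and others of a list of 10) at a summed 3905 and 8628 counts per 1000000 non-immunoglobulin UMIs (CPM), against 168 and 150 CPM in the remaining members. In mouse 1 they also held pancreatic enzyme genes (13 listed) at a summed 125391 CPM. These low-immunoglobulin members are not called plasma cells below. They gave 6.54% and 12.3% of the members' non-immunoglobulin UMIs, so gene levels are given for the 1970 and 565 members with 5% or more. That limit was set after the data were seen.

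**Figure D1:**
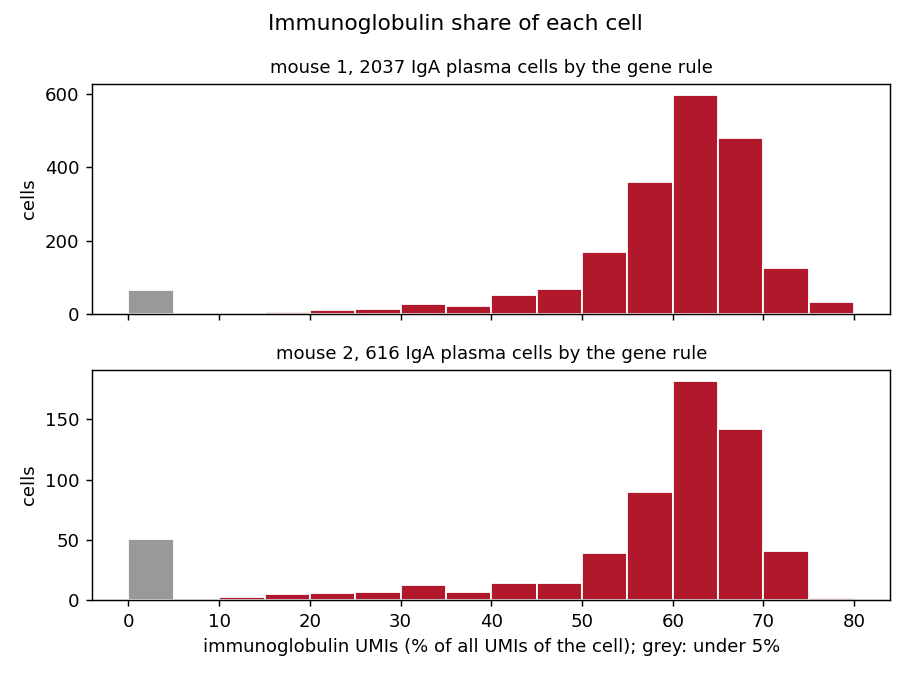
Number of cells (y axis) by the percent of the cell's UMIs that were immunoglobulin (x axis, bins of 5 percentage points), for the 2037 members of mouse 1 (top) and the 616 of mouse 2 (bottom). Most members lie between 50% and 75%, and a separate group of 67 and 51 cells (grey) lies under 5%.

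The edge of the gate lay partly inside this region. Cells just inside, with a sum of 10 UMIs of Mzb1, Derl3 and Xbp1, numbered 23 and 15 and had median Igha counts of 75 and 9 UMIs. Cells just outside, with a sum of 9, numbered 37 and 14 and had medians of 74 and 7. In mouse 1 both groups were mixed. Their upper quartiles were 1090.5 Igha UMIs and 64.1% immunoglobulin just inside, and 1154 and 62.0% just outside. In mouse 2 the upper quartiles were 11.5 Igha UMIs just inside and 8.75 just outside.

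IgA was almost the sole isotype. Among the cells passing the plasma cell gate with 5% or more immunoglobulin, Igha was the largest heavy constant in 1970 of 1974 cells of mouse 1 and in 565 of 565 of mouse 2. The other 4 cells, all of mouse 1, comprised 3 with Ighm (1971 to 3543 UMIs) and 1 with Ighg2b (829 UMIs), with 33.8% to 56.2% immunoglobulin and 199 to 1226 Jchain UMIs. The absence in mouse 2 allows a share of up to 0.651%, the upper end of the exact interval. Within the members the heavy chain was exclusive, since Igha made a median of 100% of heavy constant UMIs in each mouse, and 10% or more came from another isotype in 6 of 1970 and 2 of 565 cells. Igha lies at chr12:113254830-113260236 and Jchain at chr5:88519809-88527891, both on the minus strand of the mm10 genome.

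Most IgA plasma cells used the kappa light chain. Lambda constant genes (Iglc1 to Iglc4 summed) exceeded Igkc in 116 of the 2037 members from mouse 1 (5.69%, interval 4.73 to 6.79) and 7 of the 616 from mouse 2 (1.14%, interval 0.458 to 2.33). With 5% or more immunoglobulin, these were 115 of 1970 and 3 of 565. Kappa cells held a median of 9928 and 8058.5 Igkc UMIs. Lambda cells held a median of 10352 Iglc1 UMIs in mouse 1 and 5934 in the 3 cells of mouse 2. The larger light chain made a median of 99.1% of light constant UMIs in each mouse.

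Kappa cells nevertheless carried some lambda transcripts. Their median Iglv1 count was 24 and 22 UMIs, that of Iglc2 was 35 and 34.5, and that of Iglc3 was 12 and 13, whereas all of these medians were 0 in the T cell gate. In lambda cells the Iglc2 medians were similar, at 30 and 32 UMIs. Igkc in lambda cells of mouse 1 had a median of 180 UMIs against 40 in the T cell gate. The lambda constant genes are close copies of each other, so reads may have been split among them, and whether these transcripts came from the cell or from free RNA was not tested.

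**Figure D2:**
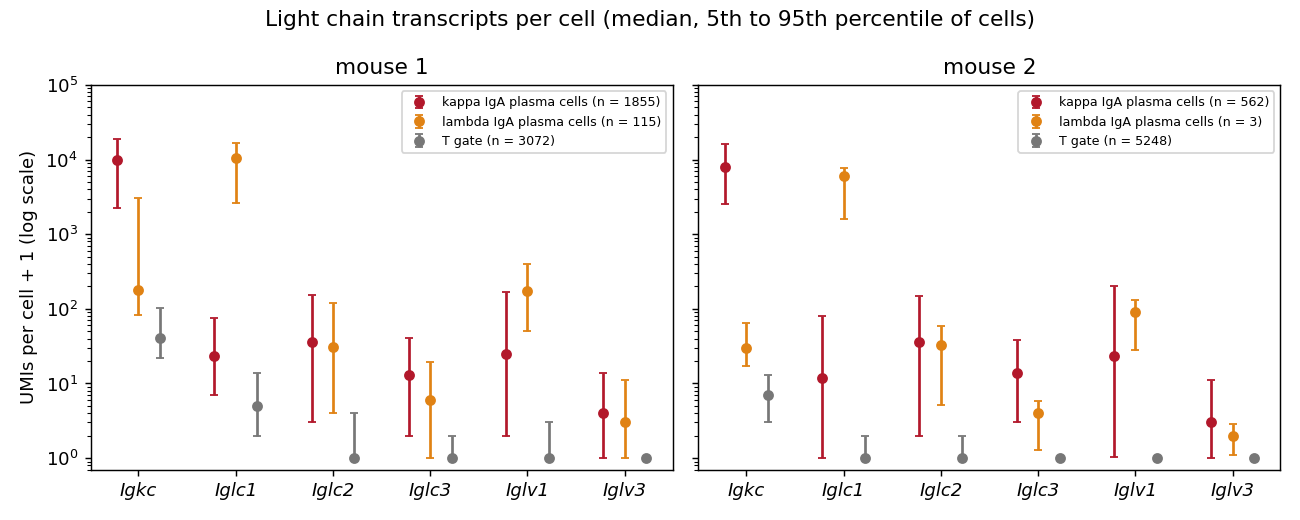
UMIs per cell plus 1 (y axis, log scale) of 6 light chain genes (x axis) in kappa IgA plasma cells, lambda IgA plasma cells and the T cell gate of mouse 1 (left) and mouse 2 (right); points are medians and bars span the 5th to 95th percentile of cells. Igkc and Iglc1 separate kappa from lambda cells, while Iglc2, Iglc3 and Iglv1 lie above the T cell gate in kappa cells too.

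Variable genes showed a diverse repertoire. The library reads the 3′ end of transcripts and therefore covers variable segments thinly, with median counts of 27 and 22 Ighv UMIs and 84 and 79 Igkv UMIs per cell. A heavy and light variable gene, each with 10 or more UMIs and 80% or more of its kind, could be assigned to 1286 of 1970 cells (65.3%) in mouse 1 and 351 of 565 (62.1%) in mouse 2. They formed 227 and 127 distinct pairs, of which 107 and 67 were seen in 1 cell. The 10 most frequent pairs held 41.1% and 37.6% of the assigned cells.

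The most frequent pair of mouse 1 was Ighv1-39 with Igkv6-23, in 82 cells (6.38%, 5.10 to 7.85). Igkv6-23 also paired with Ighv1-77 in 65 cells. Ighv9-4 with Igkv12-89 followed in 63 cells. In mouse 2 the first pair was Ighv9-2 with Igkv1-117, in 25 cells (7.12%, 4.66 to 10.3), and Ighv1-39 with Igkv6-23 was second, in 20 cells (5.70%, 3.51 to 8.66). This was the only pair in the top 10 of both mice, and 31 pairs occurred in both. Many variable genes are near-identical copies, so single gene names are uncertain, and a shared pair does not show a shared clone.

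ER genes were high in these cells. In the contrasts with B and T cells that follow, the members were chosen by some of the same genes, so levels are given as a description with no test. Fold changes are on the log2(CPM + 1) scale, and a gene counts as higher when it is 2-fold or more above in both mice. Of 45 listed genes of ER entry, folding and secretion, 39 were higher in IgA plasma cells than in a B cell gate (354 and 75 cells with 3 or more UMIs over a set of B cell genes that includes Ms4a1 and Pax5), with median log2 differences of 2.92 and 2.52. The list holds Mzb1 and Derl3, which the rule used. Over all 11613 genes counted, 10.6% were higher and 14.6% lower, with medians of -0.23 and -0.13. Against the T cell gate 41 of the 45 were higher, beside 7.74% of all 13409 genes (25.7% lower). The B cell gate of mouse 2 held phagocyte genes at 6556 CPM and that of mouse 1 at 1815 CPM, and their part in these differences was not tested.

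The chaperone Hsp90b1 (Grp94) led the list with 6037 CPM in mouse 1 and 5481 in mouse 2, against 406 and 505 in the B cell gate. Hspa5 (BiP), the chaperone first described by its binding to immunoglobulin heavy chains, stood at 2762 and 1915 CPM against 436 and 615. For entry into the ER, the signal peptidase subunit Sec11c reached 3178 and 3441 CPM against 219 and 233. The translocon-associated Ssr4 reached 3634 and 3695 against 213 and 246. The disulfide isomerase family member Txndc5 stood at 2386 and 2667 CPM against 95.3 and 127. Edem1, which helps to remove misfolded glycoproteins, was at 1071 and 1325 against 58.7 and 59.4, and the prolyl isomerase Fkbp11 at 347 and 383 against 17.6 and a listed 0. In each of these genes both mice lay above both B cell gates. Canx, Ero1lb, Pdia3, Calr and Derl2 did not reach 2-fold in both mice, with Canx at 265 and 304 CPM against 178 and 293. Pdk1, a mitochondrial kinase on the same list, was the 1 member that was lower, at 9.07 and 12.01 CPM against 21.3 and 29.7.

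Promoters of this list were searched for the ER stress response element. This element, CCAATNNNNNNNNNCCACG, is known to be bound by NF-Y at CCAAT and by ATF6 or XBP1 at CCACG. In the 250 bases before the start site (RefSeq, GRCm38.p6), on either strand, it was found in 8 of the 33 listed genes with a promoter entry (24.24%) and in 35 of 27025 promoters in all (0.1295%). The short CCACG alone was in 78.79% of them and 30.96% of all. The 9 matches are shown because they sit before chaperone and folding genes of the list. Each line runs 5′ to 3′ along the strand of the motif, with 20 bases on either side (5 for Hspa5), and capitals mark CCAAT and CCACG.
Hsp90b1, far site: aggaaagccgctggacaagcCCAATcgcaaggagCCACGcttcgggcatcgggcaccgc
Hsp90b1, near site: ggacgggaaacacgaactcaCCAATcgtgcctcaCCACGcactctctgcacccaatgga
Hspa5: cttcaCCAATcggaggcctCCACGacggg
Dnajc3: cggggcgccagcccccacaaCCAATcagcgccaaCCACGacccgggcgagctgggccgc
Calr: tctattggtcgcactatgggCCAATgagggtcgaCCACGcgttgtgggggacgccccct
Creld2: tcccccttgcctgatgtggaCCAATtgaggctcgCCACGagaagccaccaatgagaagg
Pdia6: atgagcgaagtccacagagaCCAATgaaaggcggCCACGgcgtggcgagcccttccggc
Derl3: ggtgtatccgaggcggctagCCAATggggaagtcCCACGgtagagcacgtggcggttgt
Canx: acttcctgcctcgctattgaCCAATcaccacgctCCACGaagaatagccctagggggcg

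The Hsp90b1 lines lie at chr10:86705618-86705676 (minus strand) and chr10:86705513-86705571 (plus strand), the Hspa5 line at chr2:34772020-34772048 (plus) and the Calr line at chr8:84847055-84847113 (plus). Each lies upstream of the RefSeq start. By the GENCODE M21 annotation 8 of the 9 lines overlap no gene, and the Hspa5 line overlaps an exon of Hspa5. The 8 genes spanned a wide range of levels, from Canx at 265 and 304 CPM to Hsp90b1 at 6037 and 5481. Dnajc3 was at 995 and 885 CPM, Creld2 at 742 and 643, Pdia6 at 625 and 525. A match is a sequence description and does not show that a factor was bound.

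Transcription factors of the plasma cell program were high. Xbp1, which the rule used, stood at 3089 and 3232 CPM. Prdm1 was at 262 and 319 CPM against 19.8 and 21.2 in the B cell gate, and Irf4 at 144 and 213 against 45.5 and 8.49. The elongation factor Ell2, which favours the secreted form of heavy-chain mRNA, was at 415 and 509 against 41.1 and 46.7, and Creb3l2, a factor of the secretory pathway, at 187 and 195 against 6.60 and 17.0. In all 5 of 10 listed factors were higher and 1, Aff3, was lower (1.49 and 1.90 CPM against 72.6 and 59.4). Pou2af1 stayed just under the 2-fold limit in both mice, at 333 and 449 CPM against 170 and 225.

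Genes of B cell identity were low. Of 18 with enough counts, 17 were lower than in the B cell gate. The gate was set on several of them, which fixes the direction of Ms4a1, Pax5 and the others so used. Among those not used, Ebf1 was at 49.8 and 50.8 CPM against 1610 and 1574, and the MHC class II gene H2-Aa at 138 and 62.2 against 4114 and 4078. Bach2, a repressor of Prdm1, was at 5.36 and 3.16 against 177 and 182. A few B lineage transcripts stayed high. Cd79a, a signalling chain of the B cell receptor, was the 1 gene not called lower, at 1595 and 1259 CPM against 2482 and 2168, and it was seen in 99.4% and 98.9% of the cells (8.66% and 1.01% in the T cell gate). The class II chaperone Cd74 remained at 3973 and 2728 CPM although it was lower than the 14843 and 13052 of the B cell gate.

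**Figure D3:**
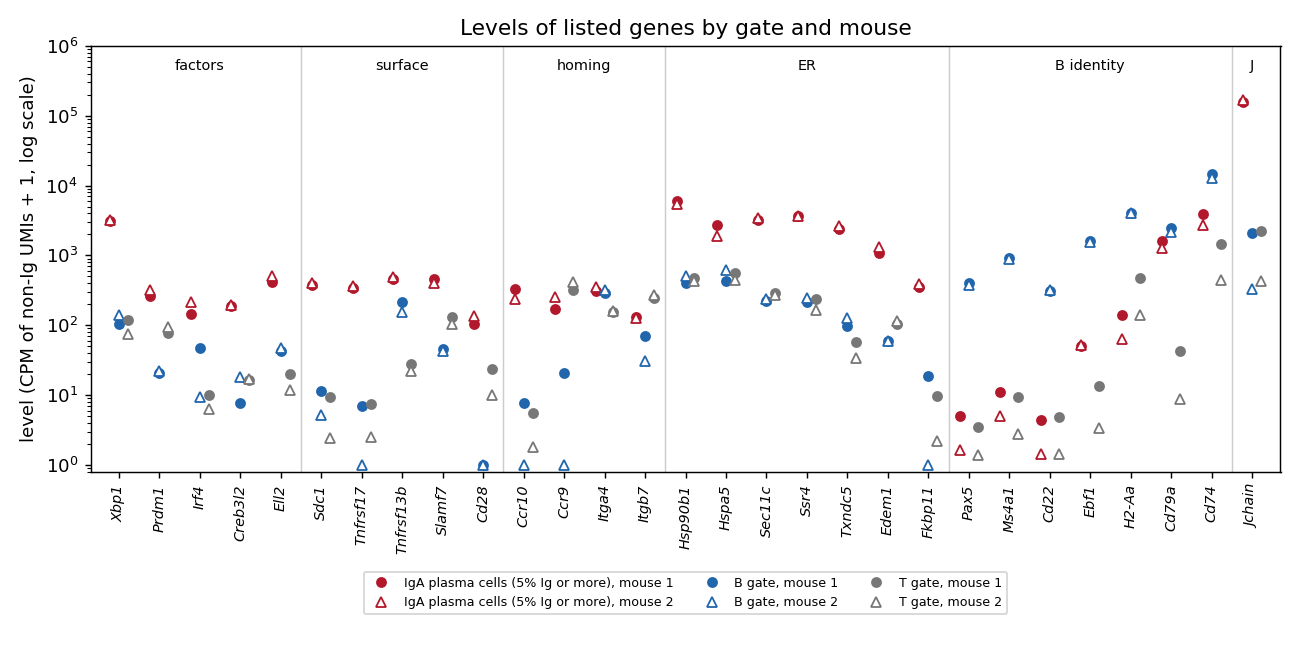
Levels (y axis, CPM of non-immunoglobulin UMIs plus 1, log scale) of listed genes (x axis, grouped by role) in IgA plasma cells with 5% or more immunoglobulin, the B cell gate and the T cell gate, with 1 point per mouse. The factors, surface and ER genes chosen for the plot lie higher in IgA plasma cells. Over the full lists 5 of 10 factors, 8 of 20 surface genes and 39 of 45 ER genes were 2-fold higher than in the B cell gate, and 1, 3 and 1 were lower. The plotted B identity genes lie lower than in the B cell gate, and Jchain lies at 155808 and 166603 CPM.

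On the surface, 8 of 20 listed genes of identity and survival were higher than in the B cell gate and 3 lower. The syndecan Sdc1 (CD138) was at 381 and 397 CPM against 10.3 and 4.24. Tnfrsf17 (BCMA), the APRIL receptor on which long-lived plasma cells depend, was at 345 and 361 against 5.87 and a listed 0. Tnfrsf13b (TACI) was at 459 and 483 against 217 and 153, and Tnfrsf13c (BAFF receptor), which B cells need, was lower at 68.4 and 79.0 against 273 and 267. Cd28, the costimulatory receptor that plasma cells share with T cells, was at 103 and 135 CPM and listed at 0 in both B cell gates. It was above the 22.7 and 9.01 CPM of the T cell gate. Slamf7 stood at 451 and 398 CPM. Cd38 was lower, at 11.4 and 8.85 against 252 and 221. The survival gene Mcl1 was at 396 and 359 CPM, close to the 329 and 289 of the B cell gate, and Bcl2 at 90.4 and 82.4 against 150 and 106.

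Receptors for mucosal chemokines were high. Ccr10, the receptor for the mucosal chemokine CCL28, stood at 326 CPM in mouse 1 and 238 in mouse 2, against 6.60 and 0 in the B cell gate and 4.48 and 0.831 in the T cell gate. Ccr9, the receptor for the small intestinal chemokine CCL25, was at 167 and 249 CPM, below the 323 and 419 of the T cell gate. After thinning each cell to 1000 non-immunoglobulin UMIs, Ccr10 was seen in 24.6% and 20.5% of IgA plasma cells and in 0.491% and 0.0770% of the T cell gate. Ccr9 was seen in 17.0% and 24.6%, against 25.7% and 28.995%. Without thinning the Ccr10 shares were 74.97% and 66.9% (1.66% and 0.248% in the T cell gate), at median depths of 8712 and 7623 such UMIs. Itga4 and Itgb7, the chains of the gut homing integrin, were at 309 and 357 and at 131 and 127 CPM. Of 16 listed homing genes 3 were higher and 6 lower than in the B cell gate. S1pr1, used for exit from lymph nodes, was at 2.05 and 1.05 CPM against 193 and 161.

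Of 14 counted genes of amino acid transport and one-carbon supply, 8 were higher than in the B cell gate and 1 (Glul) lower. Slc3a2 was at 386 and 236 CPM against 79.9 and 55.2, and Phgdh, the entry enzyme of serine synthesis, at 175 and 139 against 37.4 and 17.0. In a list of the ATF4 and CHOP arm of the unfolded protein response, which also held Atf6 and Ern1, the sensors of the other branches, 5 of 15 were higher. Asns, the asparagine synthetase, was at 73.3 and 47.2 CPM against 5.87 and 0, and Atf6 at 227 and 237 against 63.8 and 67.9. Ddit3 (CHOP) itself stood at 19.8 and 18.97 CPM against 33.0 and 17.0. Of 10 methionine cycle genes none was 2-fold higher or lower in both mice. Autophagy and proteasome genes were higher for 3 of 16, Map1lc3b, Ubb and Gabarapl1. The 20 cell cycle genes held 8 that were higher.

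Among effector genes 2 of 12 counted were higher and 4 lower. Jchain, a marker of the part but not of the rule, was at 155808 and 166603 CPM against 2097 and 331 in the B cell gate. Lgals1 was at 301 and 365 against 56.5 and 102. The lower 4 were Tgfb1, Ebi3, Il12a and Ltb. Transcripts of several products named for IgA plasma cells were near 0, with Il10 at 1.33 and 2.11 CPM, Gzmb at 8.35 and 5.69 (1249 and 1441 in the T cell gate) and Nos2 listed at 0 in both mice. Of 9 listed niche ligands and transport genes 3 had enough counts, and none was 2-fold higher or lower in both mice. The T cell list (180 and 140 CPM summed over 11 genes, against 24897 and 29855 in the T cell gate) and the phagocyte list were low. The T cell list holds the Cd3 genes, whose direction the gates fix. Of its other genes, Gzma was at 111 and 87.7 CPM against 15791 and 19097, and Trac at 2.49 and 1.90 against 358 and 361. Pancreatic enzyme genes reached 2873 CPM in mouse 1 and 2.53 in mouse 2.

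Across all genes, 89 of 2078 at 50 CPM or more in both mice were 4-fold or more above the B, T, epithelial and phagocyte gates in each mouse. After Jchain (70.3-fold in the mouse with the smaller ratio) came Tnfrsf17 (46.9), Slpi (44.7), Ccr10 (43.0), Prg2 (41.9) and the rule gene Derl3 (35.3). Slpi, a secreted leukocyte protease inhibitor, reached 2078 and 1578 CPM against at most 45.5 and 30.6 in the other gates. Prg2, best known as the major basic protein of eosinophil granules, was at 384 and 297 CPM and was seen in 76.1% and 67.4% of the cells (2.93% and 0.210% in the T cell gate, or 27.9% and 24.6% against 1.21% and 0.0193% after thinning). Pycr1, the last enzyme of proline synthesis, followed at 30.1-fold, then Tram2 (26.9) and the secretory cell factor Bhlha15 (Mist1, 21.9). The calcium channel genes Cacna1s and Cacna1h stood at 183 and 117 and at 110 and 121 CPM. Eaf2, a partner of Ell2, was at 332 and 368 CPM, and Reln, a matrix glycoprotein best known from the brain, at 74.1 and 81.8.

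Epcam, usually read as an epithelial marker, was at 211 and 183 CPM in the IgA plasma cells and was detected in 65.9% and 62.8% of them. In the T cell gate it was at 150 and 103 CPM, detected in 24.0% and 22.4% of the shallower cells there, and in the epithelial gate at 1343 and 675. The 12 listed epithelial genes summed to 904 CPM in the IgA plasma cells of mouse 1 and 246 in those of mouse 2. In mouse 2 Epcam was the highest of them, whereas in mouse 1 Defa24 lay above it at 222 CPM. Fabp1 was at 136 and 8.43 CPM and Krt8 at 28.2 and 6.96. Epcam was the 1 gene of the 12 that was higher than in the B cell gate.

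The 20 most abundant non-immunoglobulin genes, ranked over all members, began with Jchain, Malat1, Tpt1, Hsp90b1, Fau, Mzb1 and Cd74. They continued with Actb, Ssr4, B2m, Eef1a1, Sec11c, Xbp1, Tmsb4x, Ftl1, Txndc5, H3f3b, Hspa5, Sec61b and Fos. Thus 6 of the 20 (Hsp90b1, Ssr4, Sec11c, Txndc5, Hspa5 and Sec61b) were ER genes that the rule did not use. B2m, the light chain of MHC class I, was at 3144 and 3490 CPM against 1231 and 1634 in the B cell gate. Tmsb4x showed the reverse, at 964 and 933 CPM against 7240 and 11792, and the same held for Actb at 2273 and 2392 against 6791 and 10497.

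Variation between cells was ranked only for genes with enough counts after thinning, so rarer genes were not examined. At 1000 non-immunoglobulin UMIs per cell the ratio of variance to mean had a median of 1.10 and 1.11 over 492 genes with 0.2 or more UMIs per cell. Jchain reached 16.5 and 22.1, Gm42418 15.8 and 29.8, Malat1 15.3 and 12.1, and Hsp90b1 6.15 and 5.34. Slpi followed with 4.42 and 5.13, seen in 61.2% and 50.4% of the thinned cells, 5% of which held 8 and 6.8 UMIs or more. The surface genes Ly6a, Ly6d, Ly6c2 and Cd52 had ratios between 2.50 and 4.37. Ly6d was seen in 65.3% and 59.8% of thinned cells and Ly6a in 33.7% and 26.7%, against 3.89% and 0.866% and 3.50% and 0.847% in the T cell gate. Tmsb4x, Fos, Hspa5 and the mitochondrial mt-Co1, mt-Co3 and mt-Atp6 completed the 15 genes with the highest ratios in both mice.

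The profile of the mice was close. Of 2391 genes at 50 CPM or more in either mouse, 97.6% lay within 2-fold, with a median log2 ratio of mouse 1 over mouse 2 of -0.05. Pancreatic enzyme genes differed most, with Ctrb1 at 743 CPM in mouse 1 and listed at 0 in mouse 2 and Cela1 at 133 against 1.69. Among genes with 200 CPM or more in one mouse and 20 or more in the other, the haemoglobin gene Hbb-bs had the highest ratio of mouse 1 over mouse 2, at 301 against 34.1 CPM. Immediate early genes followed. Fosb was at 1122 against 322 CPM, Fos at 3094 against 1102, Jun at 1223 against 423, Junb at 295 against 110 and Ier2 at 298 against 98.6. The factor Klf2 was at 296 against 85.4. The same genes stood higher in the T cell gate of mouse 1, by 4.81-fold for Fosb, 4.32-fold for Klf2, 2.98-fold for Fos and 1.37-fold for Ier2, so these ratios were not confined to IgA plasma cells. In the B cell gate the ratios were 12.8 for Fosb and 2.66 for Jun, but 1.21 for Fos, 0.958 for Junb and 0.847 for Klf2. Such genes are known to respond to tissue digestion, whose part was not tested. Of 14 listed dissociation genes 4 were higher and 3 lower than in the B cell gate of the same mouse.

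Mouse 2 had more of the histone gene Hist1h2ae (210 against 78.2 CPM), Ly6k (215 against 86.4) and Hmgb2 (338 against 165). Irf4 was 1.48-fold and Ccr9 1.49-fold higher. In the T cell gate the ratio of mouse 2 over mouse 1 was 0.530 for Hist1h2ae and 0.592 for Irf4. For Ly6k, Hmgb2 and Ccr9 it was 1.76, 1.21 and 1.30, the same direction as in the IgA plasma cells. With the low-immunoglobulin members included, the genes furthest above in mouse 1 were Cpb1, Try4, Sycn, Try5, Cpa1, 2210010C04Rik, Reg2 and Cela2a, which mouse 2 listed at 0. Those furthest above in mouse 2 were then Il1b, Lyz2, Fcer1g, Spink4, Tyrobp, Cebpb, Ifitm3 and Lyz1, by 2.14-fold to 4.33-fold. With 5% or more immunoglobulin these last ratios were between 0.0395 and 1.10. With 1 value per mouse none of these differences has a test.

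**Figure D4:**
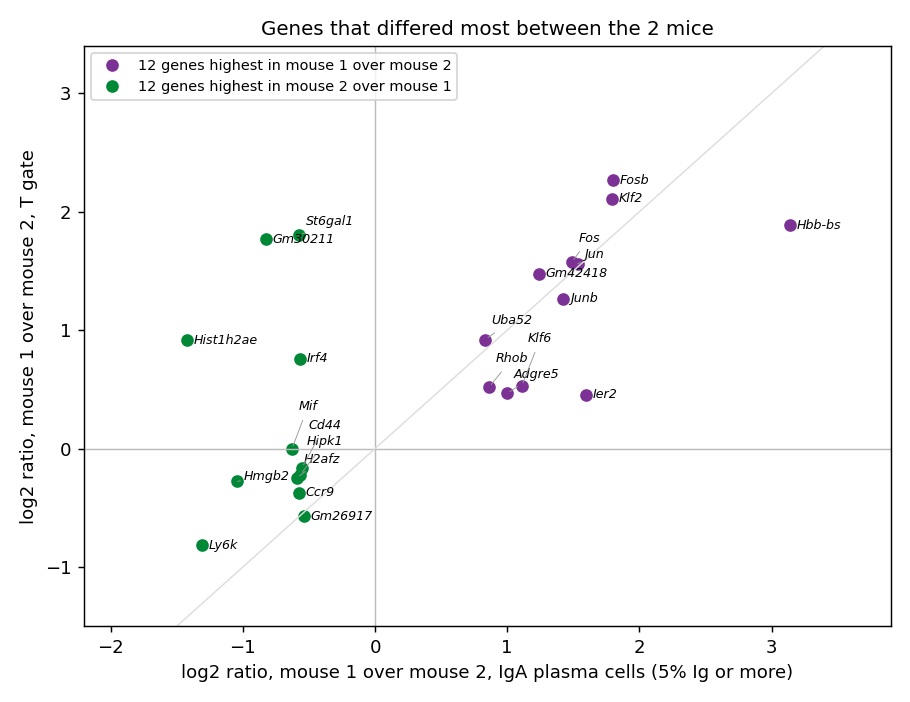
Log2 ratio of CPM, mouse 1 over mouse 2, in the T cell gate (y axis) against IgA plasma cells with 5% or more immunoglobulin (x axis), for the 12 genes with the highest ratio in each direction among those with 200 CPM or more in one mouse and 20 or more in the other; the diagonal marks equal ratios. Fosb, Klf2, Fos and Jun lie near or above the diagonal, and Hist1h2ae, Gm30211, St6gal1 and Irf4 differ in opposite directions.

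All 2037 and 616 members, the low-immunoglobulin cells included, were compared with gate-positive cells of other isotypes by edgeR's quasi-likelihood test on counts summed per mouse and class. The other class held 4 cells in mouse 1, and in mouse 2 it held 3 cells with Ighm counts of 4 to 6 UMIs and 0.463% to 0.485% immunoglobulin. Of 9071 genes tested 0 passed (0%) at an adjusted p under 0.05, 1182 had an unadjusted p under 0.05, and DESeq2 called 81. Jchain was 2.42 higher on the log2 scale (edgeR adjusted p = 0.454), and the single-mouse values were 1.49 in mouse 1 and 10.53 in mouse 2. With 5% or more immunoglobulin, which leaves 4 other cells in mouse 1 alone, assumed to vary like the IgA sums, 2 genes passed. These were Jchain (log2 1.22, edgeR adjusted p = 0.022) and Apoe (log2 -5.60, edgeR adjusted p = 0.022). With the mouse as a block 10 genes passed, all higher, among them Fos, Jun, Slpi and Edem1. They also held the phagocyte gene Lyz2 (log2 5.21) and the pancreatic enzyme gene Prss2 (log2 5.39). A class of so few cells measures those cells and not the isotype.

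Members with more kappa and members with more lambda were compared in the same way, 1921 and 116 cells in mouse 1 and 609 and 7 in mouse 2. This again included the low-immunoglobulin members, and 3 of the 7 lambda cells of mouse 2 had 5% or more immunoglobulin. Of 9526 genes tested 0 passed (0%), 218 had an unadjusted p under 0.05, and DESeq2 called 3 (Lyz2, Il1b and Chil3), all phagocyte or inflammatory genes. Jchain differed by a log2 of 0.54 and Hsp90b1 by 0.58, kappa over lambda, each with an edgeR adjusted p of 1.00. In mouse 1, where lambda cells were more numerous, they differed by -0.04 and -0.00111. With the mouse as a block 18 genes passed, all higher in kappa cells, led by Lyz2 (log2 3.99), Il1b (4.04) and Gsta1 (4.71).

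With 5% or more immunoglobulin 9 genes passed between the light chains. Tff3, Zg16 and Agr2, products of goblet cells, were higher in lambda cells by 4.06, 3.21 and 2.97 on the log2 scale. A single lambda cell of mouse 1 held 153 of the 156 Tff3 UMIs, 569 of the 623 Zg16 UMIs and 25 of the 26 Agr2 UMIs of the 115 lambda cells there. Ccl6, S100a6, Lgals2 and Xlr were also called higher in lambda cells. In mouse 1 the highest lambda cell held 22 of 23 Ccl6, 54 of 57 S100a6 and 38 of 46 Lgals2 UMIs, but 5 of 26 Xlr UMIs.

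The share of cycling cells was similar in the mice, with overlapping intervals. Mki67 and Top2a, markers of dividing cells, together reached 2 UMIs in 11.3% of members of mouse 1 (9.95 to 12.7) and 11.5% of mouse 2 (9.11 to 14.3). In the T cell gate the shares were 2.28% and 1.91%, and in the B cell gate 1.41% and 4.00%. The members, low-immunoglobulin cells included, were sequenced more deeply, with medians of 8755 and 7820.5 non-immunoglobulin UMIs against 3231 and 2583. After thinning to 1000, which left out 5 and 0 members, the shares were 1.18% and 1.46% in the members and 0.360% and 0.308% in the T cell gate. No cycling was read from these shares alone.

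Among the members with 5% or more immunoglobulin, 219 cycling cells were set beside 1751 others in mouse 1 and 69 beside 496 in mouse 2, as a description, since the split used transcripts of the same cells. The split used unthinned counts, so it favours cells with more non-immunoglobulin UMIs. Its part in the gaps of depth and immunoglobulin share that follow was not tested. The cycling cells had higher median non-immunoglobulin counts, 11271 against 8562 and 10886 against 7403.5. Immunoglobulin took less of their UMIs, 56.9% against 62.4% and 53.0% against 62.7%. With 25% or more immunoglobulin and 1 dominant heavy and light chain the gap was smaller, at 58.8% against 62.4% and 60.2% against 62.7%. Of 18 other cell cycle genes 17 were 2-fold higher in both mice, a direction that the split sets. Over all 11348 genes, 376 (3.31%) were higher and 56 (0.493%) lower.

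Of 45 listed ER genes 1 was 2-fold higher in both mice, beside 3.31% of all genes. This was Ssr2, a translocon-associated subunit, at 574 against 240 CPM in mouse 1 and 780 against 237 in mouse 2. The median log2 difference of the list was 0.20 and 0.17, beside 0.08 and 0.01 over all genes. Below the 2-fold limit listed genes went both ways. Ostc (log2 0.87 and 0.98) and Fkbp11 (0.83 and 0.97) were higher, and Herpud1 (-0.26 and -0.76) was lower. No listed factor, surface or homing gene reached 2-fold in both mice. Xbp1 was at 2819 against 3140 and 2682 against 3378 CPM, Irf4 at 148 against 143 and 224 against 211, and Ccr10 at 432 against 306 and 310 against 218. The chromatin and growth genes Pclaf, Hist1h2ae, Tuba1b, H2afz, Ran and Ptma were higher. Ptma, for example, was at 1951 against 796 and 3317 against 795 CPM.

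Jchain was lower in cycling cells without reaching 2-fold in both mice, at 113835 against 163760 CPM and 85129 against 188225. Prg2 was lower at 179 against 423 and 102 against 348 CPM. Ly6a stood at 422 against 839 and 288 against 555, and Cd28 at 78.4 against 108 and 56.3 against 156. In the list of amino acid and one-carbon genes Psat1, an enzyme of serine synthesis, was higher at 16.3 against 6.58 and 40.2 against 6.67 CPM, Glul was also higher and the glycine transporter Slc6a9 was lower. Il10, Pigr and C1qa were 2-fold higher and Lag3 and Cela1 2-fold lower in both mice, at low counts. The class II gene H2-Aa was higher, at 272 against 112 and 167 against 34.4 CPM. Phagocyte genes summed to 227 against 157 and 490 against 60.0 CPM in the same cells, and epithelial genes to 1483 against 794 and 192 against 260. Their part was not tested. With 25% or more immunoglobulin and 1 dominant heavy and light chain, an alternative added after the data were seen, 236 genes were higher and 47 lower of 11159, and 14 of the 18 cell cycle genes were 2-fold higher.

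**Figure D5:**
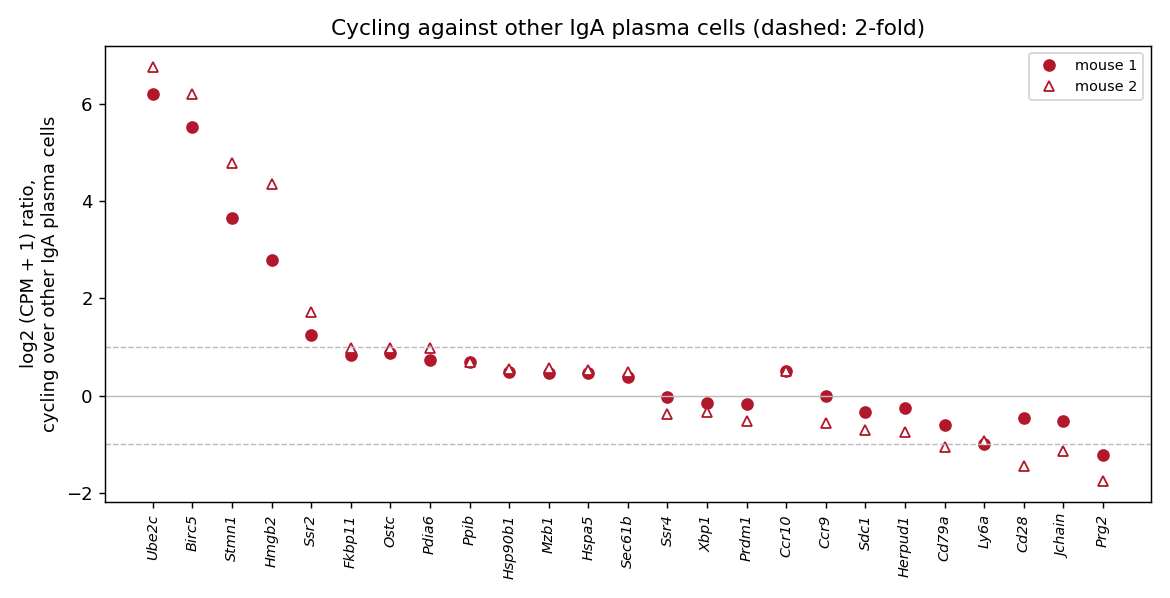
Log2(CPM + 1) ratio of cycling over other IgA plasma cells (y axis) for 25 genes (x axis), with 1 point per mouse and dashed lines at 2-fold. The cell cycle genes Ube2c, Birc5, Stmn1 and Hmgb2 and the ER gene Ssr2 lie above the upper line in both mice. The other ER genes and the factors lie between the dashed lines. Of these ER genes, those from Fkbp11 to Sec61b on the x axis lie above 0 in both mice, and Ssr4 and Herpud1 lie below 0. Jchain and Prg2 also lie below 0.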

How the data were processed

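The authors deposited raw UMI counts per gene and barcode for each mouse, made from 10x 3′ v3 libraries with Cell Ranger 6.1.2 on mm10 per the labels. The annotation release and any removal of doublets are not given in the sources used here. The libraries held 9645 and 8800 barcodes and 85670711 and 38716743 UMIs. They shared 24 barcodes, 16 of them kept and 0 in members. A barcode was kept if it had more than 100 genes and 400 UMIs, with mitochondrial genes below 5% and haemoglobin genes below 10% of its UMIs. Ig symbols (392) were left out of every total, so CPM are per 1000000 non-immunoglobulin UMIs, with a pseudocount of 1 CPM in log2 ratios, which understates low genes. Genes with 20 or more UMIs were counted in descriptions. No doublet caller was run; cells with one dominant chain (90%) served as an alternative.

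The members and lists were chosen with earlier results of these data known. Named genes were the rule genes and markers, the 20 most abundant, up to 12 per direction in a test, 8 per direction between mice, the 15 most variable after thinning, and list members. Genes above every gate, between-mouse genes at 5% or more immunoglobulin, cycling genes and those called in alternatives were named after their values were seen.

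For each mouse the counts of a class were added up, and these sums were tested with edgeR 4.0.16 in R 4.3.3 (TMM, filterByExpr, glmQLFTest, two-sided, Benjamini-Hochberg, threshold 0.05). In simulated data the isotype fit found 37.8% of changes of log2 1, and the light chain fit 10.6%. For changes of log2 2 these were 78.4% and 94.2%, and 9.5% and 1.87% of the calls were false. The simulation gave every gene the same dispersion and had no effect of the mouse. It placed changes only in genes with enough expected counts in the smallest sum. The rates may therefore overstate what the tests could find in the real sums. DESeq2 1.42.0, no filter, a mouse block, other gates and other limits were alternatives. Sums of the same animal are paired, and they deviated together (correlations 0.222 and 0.310). Intervals are exact (Clopper-Pearson), n = 2 mice throughout. Python 3.11.15 and scipy 1.17.1 were used. Promoters came from RefSeq (GRCm38.p6), gene positions from an annotation of the same build. Some listed genes are not reported here by name.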

Additional observations from a re-analysis of the deposited data

Results flagged for a closer look

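Some barcodes outside the members also carried the immunoglobulin signal. In mouse 1, 48 barcodes removed by the quality filters met the gene rule, 46 of them with 5% or more immunoglobulin and 40 with 5% or more mitochondrial UMIs. In mouse 2 there were 12 such barcodes, 10 with 5% or more immunoglobulin and 12 with high mitochondrial UMIs.

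Kept barcodes with 25% or more immunoglobulin UMIs that were not members numbered 410 in mouse 1 and 82 in mouse 2. Of these, 259 and 71 were left out because they held 2 or more Cd3 UMIs. Their median Cd3 counts were 9 and 11, against 14 and 14 in the T cell gate. They also held medians of 3415 and 3536 Igha UMIs, 1324 and 1258 Jchain UMIs and 24764 and 23229 UMIs in all, and 250 and 69 of them passed the plasma cell gate. A further 147 and 11 fell short of 10 UMIs of Mzb1, Derl3 and Xbp1. They had median totals of 1868 and 3858 UMIs and median immunoglobulin shares of 50.4% and 59.5%.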

How the results depend on the processing

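There were 2 mice, and mouse 2 held 7 lambda members and 3 other-isotype cells. The number of genes called between IgA and other isotypes was 0, and became 81 with DESeq2 (7 higher, 74 lower), 100 with no filter (35 and 65), 10 when the mouse was a replicate block, 1 with a gate of 20 UMIs (Apoe), 2 with 5% or more immunoglobulin and 1 with 25% or more (Jchain). It stayed at 0 in the other 5 alternatives. The Jchain difference was 1.22 and 1.30 (edgeR adjusted p = 0.022 and 0.028) in the last 2, and 1.21 and 1.14 (edgeR adjusted p = 0.170 and 0.196) with a gate of 20 UMIs and with one dominant chain. All 4 of these settings, the Apoe call included, have no other cells in mouse 2 and rest on 1 sum of 4 cells. Leaving out 1 mouse, the Jchain difference ranged from 1.49 to 10.53. IgG alone could not be fitted, since 1 cell held it, and without either mouse neither test has residual degrees of freedom.

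Between kappa and lambda cells the count was 0, and became 3 with DESeq2, 142 with no filter (100 higher, 42 lower), 18 when the mouse was a replicate block, 15 with a gate of 20 UMIs, 50 with one dominant chain, 9 with 5% or more immunoglobulin and 19 with 25% or more. It stayed at 0 with 10% mitochondrial UMIs and with Jchain left out. Leaving out 1 mouse, the log2 difference ranged from -0.0354 to 1.60 for Jchain and from -0.00111 to 2.01 for Hsp90b1, reversed without mouse 2. The causes were not tested. With 5% or more immunoglobulin, 1 lambda cell of mouse 1 held most of the lambda-cell UMIs there of Tff3, Zg16 and Agr2. Most of those of Ccl6, S100a6 and Lgals2 also lay in 1 cell for each gene.

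The median immunoglobulin share (mean of the mice 61.8%) became 61.7% with 10% mitochondrial UMIs, 62.3% and 60.5% with gates of 20 and 5 UMIs, 62.0% with one dominant chain and 62.2% and 62.4% with 5% and 25% or more immunoglobulin. The cycling share (mean 11.4%) became 12.4% and 10.96% with those gates, 11.7% and 10.3% with those shares, 26.1% with 1 UMI of Mki67 and Top2a and 1.32% after thinning. Leaving out each mouse, the member share ranged from 8.85% to 25.7%, the lambda share from 1.14% to 5.69%, the immunoglobulin share from 61.8% to 61.8% and the cycling share from 11.3% to 11.5%. The member and lambda shares moved by less than the standard deviation of the mice in every alternative. That limit was wide, at 11.9 points on a mean of 17.3% and 3.22 points on a mean of 3.42%. Leaving out a mouse cannot exceed it, so it says little about stability.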

Other observations

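Ly6k, a Ly6 family surface gene, was concentrated in few IgA plasma cells. It was seen in 135 of 1970 cells with 5% or more immunoglobulin in mouse 1 (6.85%) and 62 of 565 in mouse 2 (10.97%), against 1.20% and 1.49% of the T cell gate. The 67 and 46 cells with 5 or more Ly6k UMIs held 93.2% and 96.9% of its UMIs in these cells, with up to 88 and 86 UMIs in 1 cell. In the T cell gate 1 of 3072 and 1 of 5248 cells reached 5 UMIs.

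These cells were unevenly spread over variable gene pairs. In mouse 1 all 7 cells with Ighv3-6 and Igkv4-50 and all 4 with Ighv14-2 and Igkv14-111 held 5 or more Ly6k UMIs, as did 11 of 45 with Ighv1-19 and Igkv6-23. In mouse 2 all 3 cells with Ighv1-81 and Igkv9-120 did. Of the 82 and 32 pairs with 3 or more cells, 72 and 29, holding 922 and 217 cells, had none. Over all cells with an assigned pair, 43 of 1286 (3.34%) and 18 of 351 (5.13%) held 5 or more Ly6k UMIs. At such shares a pair of few cells would often have none, so the number of empty pairs alone does not show an uneven spread. The split was noticed in these data, has no test, and variable gene names from a 3′ library are uncertain.

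Rubcnl, called higher in kappa cells with 5% or more immunoglobulin, had no UMI in 115 lambda cells of mouse 1 and was seen in 164 of 1855 kappa cells there and 63 of 562 in mouse 2. Its counts never exceeded 3 UMIs in a cell.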
